A study of Mus musculus with 6 samples.

Results

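Receptor-type protein tyrosine phosphatases are membrane proteins that remove phosphate from tyrosine residues of other proteins. The 8 genes described here, Ptprm, Ptprc, Ptpre, Ptprj, Ptpro, Ptpra, Ptprs and Ptprk, were chosen by name from the 21 mouse genes of the class. Each matched 1 of the 55487 genes in the deposited count tables, and all 8 were among the 14140 genes with enough reads to test. They were chosen with the difference between libraries by MHC-II label in view, so their values in that comparison are a description and carry no test.

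The cells were macrophages from Lewis lung carcinoma, a transplantable mouse lung tumour line injected under the skin of C57BL/6 mice. After dissociation and magnetic enrichment of CD11b-positive cells, macrophages were sorted as CD11b+, F4/80+, Ly6C- and Ly-6G- cells and split into an MHC-II high and an MHC-II low population, per the labels' protocols. There were 3 libraries of rRNA-depleted total RNA with the label MHC-II high and 3 with the label MHC-II low, numbered by batches 1 to 3. No genotype, drug or other agent set the groups apart, and the sources used here do not state animal age, pooling or whether batches were separate mice. The p-values below therefore reflect only how far these 6 libraries vary, and that variation may be technical.

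Transcripts of the sorted protein went against the labels, so each direction is that of the libraries as labelled. H2-Aa, a chain of MHC class II, stood at 4.40, 5.48 and 6.69 CPM, read counts scaled by effective library size, in the high-labelled libraries and at 1377, 1166 and 1506 CPM in the low-labelled ones. The groups did not overlap, and H2-Ab1 and Cd74, the partner chain and the invariant chain, lay the same way. Reads in genes numbered 15159356 to 25473051 in the high-labelled libraries and 10202879 to 21290781 in the low-labelled ones. Labelled low replicate 3 stood apart, with 47.3% of its reads in 1 rRNA copy and 4669283 reads left after rRNA and mitochondrial genes were taken off, compared with 11670849 to 17982808 in the other libraries. Its log2 CPM rose most steeply with the GC content of genes. Members that follow this trend are given with and without it. In bulk RNA, fewer cells of a type and less RNA per cell cannot be told apart.

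Receptor phosphatases carry an extracellular part, a single membrane span and a cytoplasmic part with, in most members, a pair of phosphatase domains of which the membrane-proximal carries most of the activity. Ptprc encodes CD45, the abundant phosphatase of leukocytes, which activates Src family kinases by removing an inhibitory phosphate and can also restrain them and JAK kinases. Ptprj encodes CD148, which shares with CD45 the control of Src family kinases in macrophages. Ptprm and Ptprk belong to a class whose extracellular parts bind the same protein on a neighbouring cell and whose known partners are cadherins and catenins.

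Windows before the transcription start are shown for 4 members. They set Ptprc, the most abundant member, and Ptpro beside the pair of adhesion-type genes, of which Ptprm differed most between the labels. They are 240 bases on the transcribed strand upstream of the most 5′ RefSeq start on GRCm38.p6, leaving out the last 10 bases before it. The windows of Ptprc and Ptpre lie wholly, and that of Ptprj in part, inside the gene as GENCODE places it, downstream of the GENCODE start. Myeloid and B cells have a shorter form of Ptpro, and whether that form starts at the window shown was not tested. Capitals mark AGGAAG, the core of sites for ETS factors such as PU.1, read on either strand, so that CTTCCT is the same motif on the other strand.
Ptprm, chr17:67354470-67354709, minus strand: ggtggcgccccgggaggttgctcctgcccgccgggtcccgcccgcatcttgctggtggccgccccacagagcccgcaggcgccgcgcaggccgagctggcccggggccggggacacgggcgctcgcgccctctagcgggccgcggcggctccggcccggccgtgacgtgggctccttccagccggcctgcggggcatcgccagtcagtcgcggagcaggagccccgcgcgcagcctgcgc
Ptprk, chr10:28074570-28074809, plus strand: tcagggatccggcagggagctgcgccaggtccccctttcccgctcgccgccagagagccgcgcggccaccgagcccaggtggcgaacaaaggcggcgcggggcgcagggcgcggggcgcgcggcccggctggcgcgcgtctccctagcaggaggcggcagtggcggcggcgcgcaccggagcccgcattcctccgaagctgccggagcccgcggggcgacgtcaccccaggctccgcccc
Ptprc, chr1:138175316-138175555, minus strand: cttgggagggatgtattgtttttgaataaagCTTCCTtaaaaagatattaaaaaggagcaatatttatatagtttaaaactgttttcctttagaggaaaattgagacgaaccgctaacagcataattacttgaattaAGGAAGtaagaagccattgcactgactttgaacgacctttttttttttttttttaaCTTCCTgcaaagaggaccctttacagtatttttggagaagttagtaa
Ptpro, chr6:137252049-137252288, plus strand: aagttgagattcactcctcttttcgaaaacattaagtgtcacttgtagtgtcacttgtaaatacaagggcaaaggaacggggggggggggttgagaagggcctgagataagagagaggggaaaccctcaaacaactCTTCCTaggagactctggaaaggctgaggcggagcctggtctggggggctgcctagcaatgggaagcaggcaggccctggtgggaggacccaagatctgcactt

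The windows of Ptprm and Ptprk were rich in G and C, at 80.8% and 79.2%, with 35 and 37 CG steps. Those of Ptprc and Ptpro held 3 CG steps each, and the Ptprc window was 31.3% G and C. The motif occurred 3 times in the Ptprc window, 1 time in that of Ptpro and not in those of Ptprm and Ptprk. Of the other members, Ptprj held it 2 times among 34 CG steps, while Ptpra, Ptpre and Ptprs held none. Over 27025 genes with such a window, 28% held the motif at least once and 1.11% at least 3 times. The median was 5 CG steps, and 4.79% of windows had 30 or more. A match is a string of letters and not a site, and no match says only that these letters are not in this window.

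Levels per length set Ptprc and Ptprj above the rest of the class. On the scale of CPM per kilobase of annotated exons, Ptprc averaged 47.6 ± 6.1 in the high-labelled libraries and 42.4 ± 11.6 in the low-labelled ones (SD, n = 3 each). Ptprj averaged 31.6 ± 0.62 with the high label and 31.2 ± 3.0 with the low label on that scale. With the high label, Ptpra followed at 14.8, Ptpro at 12.5, Ptpre at 7.69, Ptprs at 6.06, Ptprm at 1.24 and Ptprk at 0.0627. With the low label, the levels were 11.1 for Ptpra, 9.90 for Ptpro, 7.40 for Ptpre, 10.2 for Ptprs, 0.324 for Ptprm and 0.0986 for Ptprk. The ranges over libraries kept neighbours in this order apart with the high label except for Ptpre and Ptprs. With the low label, Ptprc and Ptprj overlapped, as did each neighbouring pair among Ptpra, Ptprs, Ptpro and Ptpre. With the length of the longest transcript in place of all exons, Ptpro and Ptprs changed places in the order over all libraries. Without labelled low replicate 3, Ptprs and Ptpre did. The distance between Ptprc and Ptprj also depended on the length, as Ptprc has 18313 bases of exons and a longest transcript of 5740. Per kilobase of longest transcript, Ptprc averaged 152 with the high label and 135 with the low label. On that scale Ptprj averaged 34.6 and 34.2, and Ptpra 30.2 and 22.7.

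**Figure D1:**
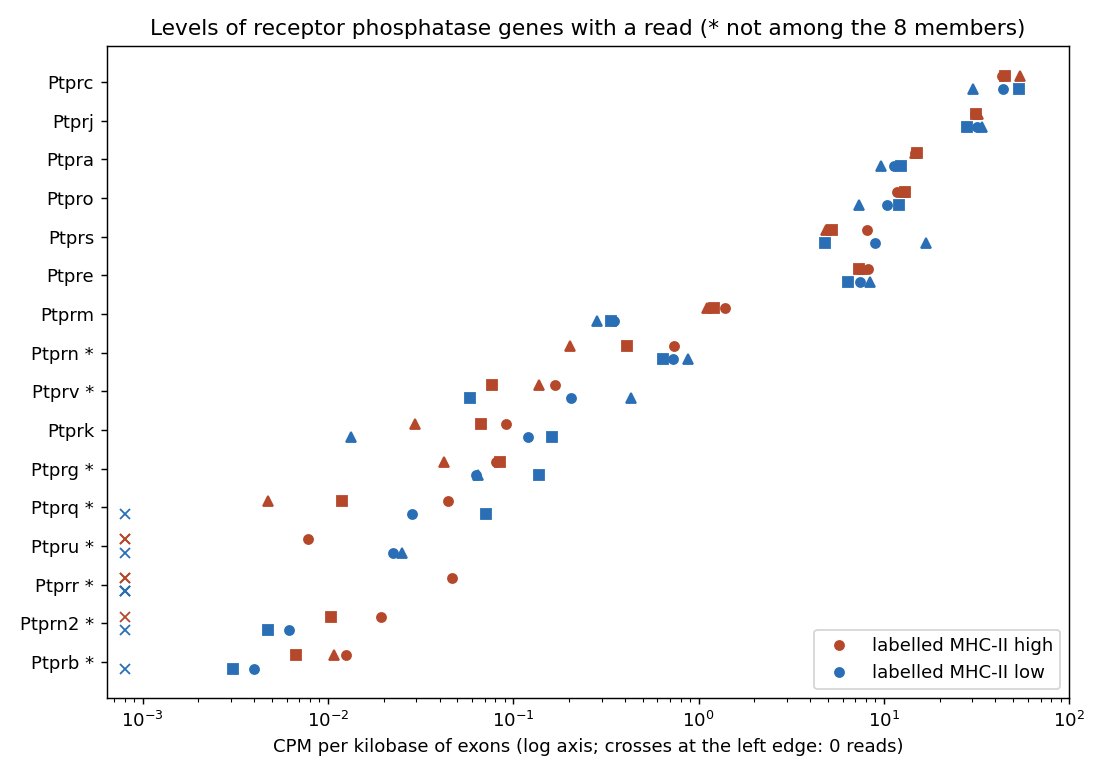
Levels of the 16 receptor phosphatase genes with at least 1 read, in CPM per kilobase of exons on a log axis, with the libraries labelled MHC-II high in red and those labelled MHC-II low in blue (circle, square and triangle for batches 1, 2 and 3). Ptprc and Ptprj stand highest, and the red and blue points of Ptprm do not overlap.

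The shares that follow are on the scale of all annotated exons and depend on that choice of length. Of the summed level of the 21 genes, Ptprc made up 36.1% to 42.5% in the high-labelled libraries and 28.0% to 45.1% in the low-labelled ones. Ptprj made up 25.2% to 26.3% with the high label and 23.6% to 31.4% with the low label. Ptprm made up 0.868% to 1.16% with the high label and 0.262% to 0.304% with the low label.

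The 13 receptor phosphatases outside the members were low, but not all lay below every member. Per kilobase of exons, Ptprn averaged 0.448 with the high label and 0.751 with the low label, where Ptprm averaged 1.24 and 0.324. Ptprv averaged 0.127 and 0.233, and Ptprg 0.0694 and 0.0884, where Ptprk averaged 0.0627 and 0.0986. Ptprd, Ptprf, Ptprh, Ptprt and Ptprz1 had 0 reads in every library, which allows up to 0.107 to 0.167 CPM in the high-labelled libraries and 0.123 to 0.535 CPM in the low-labelled ones, at 3 counts per library. These floors cover counting error only. Ptprb, the vascular endothelial phosphatase, had 3, 2 and 4 reads with the high label and 1, 1 and 0 with the low label. Ptprn2, Ptprq, Ptprr and Ptpru did not pass the filter for testing. Summed over libraries they had 5, 9, 5 and 1 reads with the high label and 2, 17, 0 and 4 with the low label. Ptprg, Ptprn and Ptprv could be tested and none was called by edgeR, with log2 fold changes of -0.44 ± 0.49, -0.74 ± 0.46 and -0.69 ± 0.68 (± standard error) and adjusted p values of 0.653, 0.490 and 0.614. Ptprv was at -0.03 without labelled low replicate 3, -0.11 with an offset for GC content and -0.17 by limma-voom, and Ptprn at -0.38 with that offset. None of these 3 had an unadjusted p under 0.05, and 0 were called by DESeq2 or limma-voom.

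Ptprm was the member that differed most between the labels. It encodes the adhesion-type phosphatase mu and lies on chromosome 17 from 66666947 to 67354457 (GRCm38). It stood at 12.2, 10.7 and 9.83 CPM in the high-labelled libraries, from 220, 240 and 275 reads. In the low-labelled libraries it stood at 3.09, 2.98 and 2.50 CPM, from 58, 73 and 14 reads. All 3 libraries labelled high lay above all labelled low, and the spread within a label was small, with a coefficient of variation of 11.2% with the high label and 11.05% with the low label. The fitted difference was 1.91 ± 0.24 on the log2 scale (± standard error), or 3.76-fold. Within batches 1, 2 and 3 the log2 ratios were 1.99, 1.84 and 1.98.

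Ptprm was the only 1 of the 8 members with an adjusted p below 0.05 in the edgeR fit, where 0.446% of all tested genes were called and 0.0919% were called higher. Nothing is read from that count, since the choice of members used this comparison. With the batch as a block its log2 fold change was 1.93 and it was not called, in a fit that called 0.00707% of genes higher. It was also not called without any single one of the labelled high replicates, without labelled low replicate 1 or without batch 3, fits that called 0% of all genes higher, where its log2 fold change lay between 1.84 and 1.99. Over all 17 alternative settings the value ranged from 1.84 to 2.16, above 0 in each. An annotated pseudogene, AC139750.1, lies with its whole length of 457 bases over Ptprm exons on the same strand. It had 0 reads in all libraries. A read over both genes may be left out as ambiguous, so the 0 does not show that the pseudogene is silent.

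Markers of other cells were set beside Ptprm because endothelium is a known source of its transcript. The 7 endothelial markers summed to 18.2 to 24.9 CPM in the high-labelled libraries and 15.8 to 31.2 CPM in the low-labelled ones, which overlapped. The markers did not all go the same way. Of the 4 tested, 0 were called by edgeR, DESeq2 or limma-voom, with 1 higher and 1 lower at an unadjusted p under 0.05 by edgeR. With the GC offset and the batch as a block 1 was called, in a fit that called 3.76% of all genes. Ptprb, also 1 of the 7, was too low to test, at 0.0891 to 0.167 CPM with the high label and 0 to 0.0533 CPM with the low label. Kdr, a receptor for VEGF, had 13.4 ± 2.2 CPM with the high label and 8.38 ± 2.2 CPM with the low label (adjusted p 0.384 by edgeR). Pecam1 had 3.20 ± 0.74 CPM with the high label and 6.60 ± 1.5 CPM with the low label (SD, n = 3 each, adjusted p 0.258 by edgeR). The libraries of the 2 labels did not overlap in Kdr, higher with the high label, or in Pecam1, lower with it. Of all tested genes 10.5% lay wholly higher and 9.48% wholly lower. Dendritic cell markers differed between the labels. The 12 genes summed to 51.1 to 94.9 CPM with the high label and 289 to 423 CPM with the low label, and 4 of 9 tested were called lower by edgeR, namely Itgax, Ccr7, Ccl22 and Flt3, while DESeq2 called 7 and limma-voom 3. All 9 tested had a log2 fold change below 0 in the edgeR fit. Over all tested genes the shares called lower were 0.354% by edgeR, 1.96% by DESeq2 and 0.297% by limma-voom. Irf4, a factor of the same list, stood at 4.00 ± 1.3 CPM with the high label and 14.0 ± 4.3 CPM with the low label (adjusted p 0.0784 by edgeR). None of the 12 was at 0 in every library, although Ccr7 had 0 reads in labelled high replicates 2 and 3. Their part in the difference of Ptprm was not tested.

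**Figure D2:**
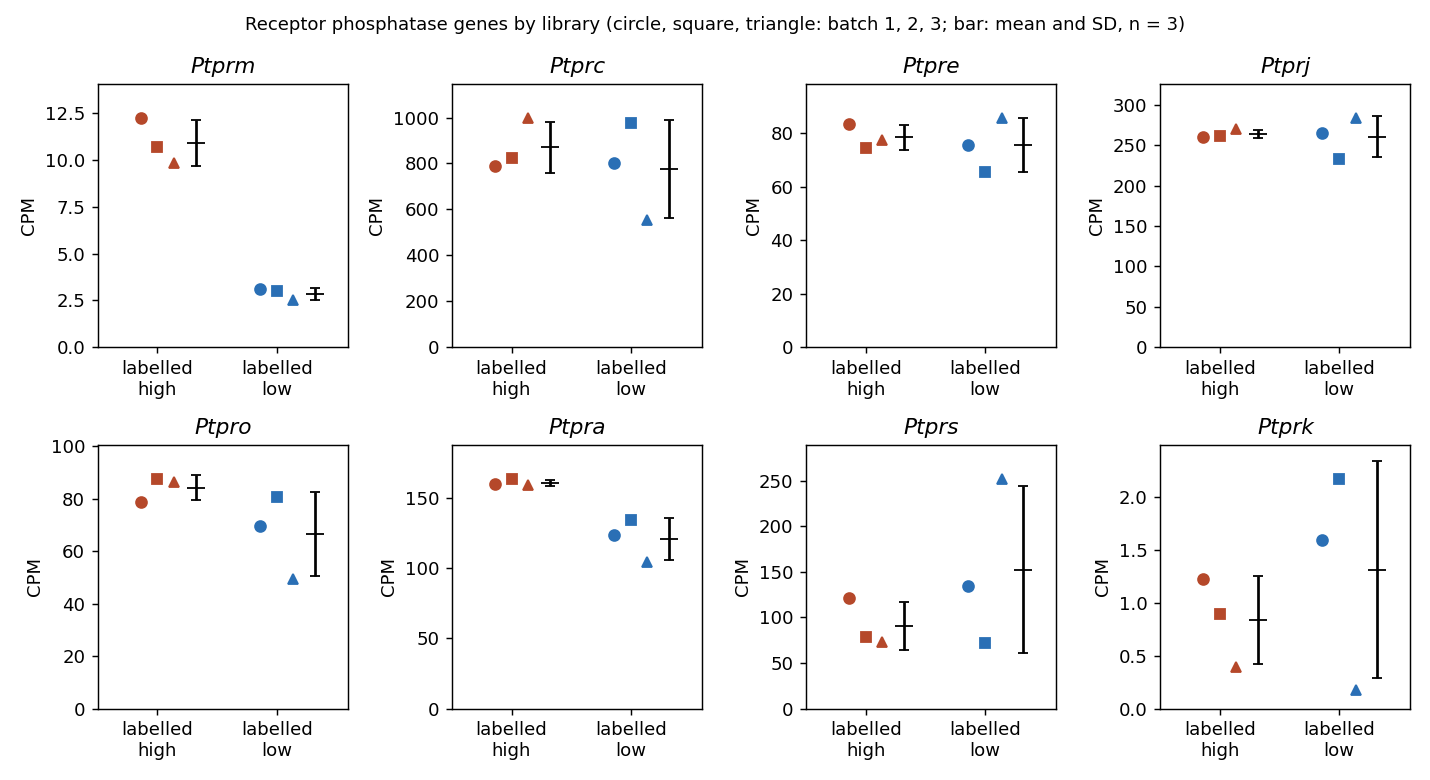
CPM of each member in each library, with the libraries labelled MHC-II high in red on the left of each panel and those labelled MHC-II low in blue on the right, symbols for batches and bars for mean and SD (n = 3). Ptprm and Ptpra have all red points above all blue points, and the triangle of labelled low replicate 3 lies far from its group in Ptprc and Ptprs.

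The genes whose pattern over the 6 libraries lay closest to that of Ptprm were Rasgrp3, Sh3bp5, Cd36, Serpinb6a and Pdpn. The measure was the root mean square difference of log2 CPM after each gene's mean was taken off, over 8975 protein-coding genes of at least 5 CPM on average. It was 0.203 for Rasgrp3, an exchange factor for Ras-type GTPases, and 0.322 for Pdpn, the membrane glycoprotein podoplanin. Rasgrp3 stood at 15.4, 12.0 and 15.9 CPM in the high-labelled libraries and at 5.01, 4.17 and 4.10 CPM in the low-labelled ones. Cd36, a scavenger receptor, stood at 188, 148 and 179 CPM with the high label and 71.6, 54.9 and 32.3 CPM with the low label. These genes were picked for their likeness to Ptprm, so their fold changes carry no test here.

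Ptprk, the other member of the adhesion-type class, lies on chromosome 10 from 28074820 to 28597397 and did not share the pattern of Ptprm. It stood at 1.22, 0.891 and 0.393 CPM in the high-labelled libraries, from 22, 20 and 11 reads. In the low-labelled ones it stood at 1.599, 2.17 and 0.178 CPM, from 30, 53 and 1 reads. The groups overlapped, and batch 3 was lowest under both labels. The fitted log2 fold change was -0.84 ± 0.66 (± standard error), ranging from -1.20 to -0.35 over the alternatives.

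Fibroblast markers ran with Ptprk over the batches. The 7 markers summed to 411, 407 and 72.4 CPM in the high-labelled libraries and to 511, 599 and 129 CPM in the low-labelled ones, for batches 1, 2 and 3. Col3a1, a fibrillar collagen, stood at 218 ± 143 CPM with the high label and 321 ± 187 CPM with the low label (SD, n = 3 each), and Dcn, the proteoglycan decorin, at 43.8 ± 29.2 CPM with the high label and 47.6 ± 35.8 CPM with the low label. All 7 were tested and 0 were called by edgeR, DESeq2 or limma-voom, with 1 at an unadjusted p under 0.05, and none was at 0 in every library. Their part in the level of Ptprk was not tested. Ptprm was also lowest in batch 3 under both labels, within narrower ranges. It lay within 9.83 to 12.2 CPM with the high label and 2.50 to 3.09 CPM with the low label. Ptprk lay within 0.393 to 1.22 CPM and 0.178 to 2.17 CPM, its lowest value resting on 1 read.

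**Figure D3:**
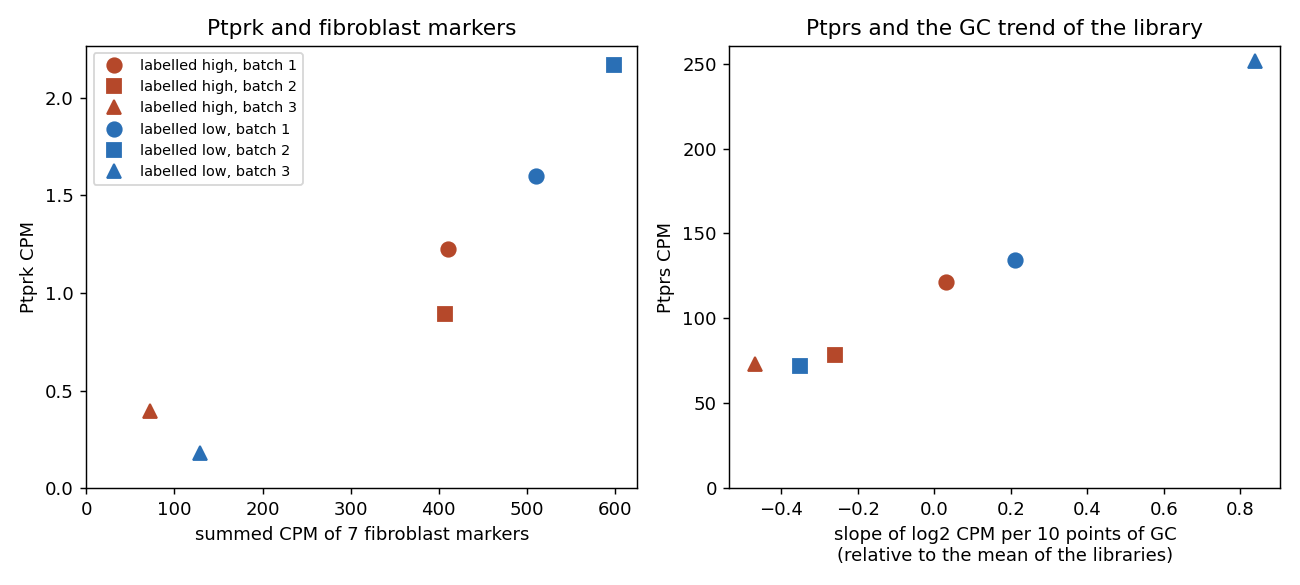
Left, Ptprk in CPM against the summed CPM of 7 fibroblast markers, and right, Ptprs in CPM against each library's slope of log2 CPM per 10 percentage points of GC content, relative to the mean of the libraries, with 1 point per library. Both batch 3 libraries lie at the low end on the left, and labelled low replicate 3 lies alone at 251 CPM and a slope of 0.84 on the right.

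Ptprs, a receptor of heparan and chondroitin sulphate proteoglycans best known from neurons, lies on chromosome 17 from 56412426 to 56476483. It stood at 121, 78.5 and 72.9 CPM in the high-labelled libraries and at 135, 71.7 and 251 CPM in the low-labelled ones. The groups overlapped, and the fitted log2 fold change of -0.74 ± 0.42 (± standard error) rested on labelled low replicate 3, without which it was -0.18 ± 0.31. The longest transcript of Ptprs is 60.3% G and C, the highest of the members, against 39.4% for Ptprc, the lowest. The order of the libraries in Ptprs followed the slope of log2 CPM over GC content, which was 0.03, -0.26 and -0.47 with the high label and 0.21, -0.35 and 0.84 with the low label per 10 percentage points. The lowest slope and the lowest level fell in different libraries, labelled high replicate 3 at 72.9 CPM and labelled low replicate 2 at 71.7 CPM. With an offset that takes out this trend the log2 fold change was -0.05 ± 0.11. In each of 17 alternatives it stayed below 0, from -1.05 to -0.04.

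Plasmacytoid dendritic cells are a known source of Ptprs transcript in mouse. Of the 8 markers of these cells Klk1 had 0 reads in every library and Siglech, a defining gene, had 1, 1 and 0 reads with the high label and 0 with the low label. The list summed to 134 to 158 CPM with the high label and 112 to 131 CPM with the low label, nearly all from Tcf4 and Bst2, which macrophages also express. Tcf4 stood at 134 ± 9.1 CPM with the high label and 105 ± 11.7 CPM with the low label, and Bst2 at 12.4 ± 3.3 CPM with the high label and 14.2 ± 5.6 CPM with the low label. Of the 3 tested, 0 were called by edgeR, DESeq2 or limma-voom, and 0 had an unadjusted p under 0.05.

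Ptprc lies on chromosome 1 from 138062861 to 138175708 and had the most reads of the members, 3102 to 27915 per library. It stood at 790, 824 and 998 CPM in the high-labelled libraries and at 800, 976 and 554 CPM in the low-labelled ones. The groups overlapped, and labelled low replicate 3 was the lowest library. The fitted log2 fold change was 0.16 ± 0.24 (± standard error). Its sign was not stable, at -0.03 ± 0.17 without labelled low replicate 3, -0.13 ± 0.18 without batch 3 and -0.18 ± 0.11 with the GC offset, against 0.39 ± 0.23 without labelled low replicate 2. The genes closest to Ptprc in pattern were Mtmr1, Trappc8, Zfp131, Topbp1 and Cyb5r4, with root mean square differences of 0.0306 to 0.0434 on the log2 scale. Each of these 5 was likewise lowest in labelled low replicate 3, as with Trappc8 at 59.8 CPM there, against 87.6 and 112 CPM in the other libraries labelled low and 88.2 to 109 CPM in those labelled high.

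Ptprj, on chromosome 2 from 90429754 to 90580647, lay close to the same level in all libraries. It stood at 260, 261 and 270 CPM in the high-labelled libraries and at 265, 234 and 284 CPM in the low-labelled ones, which overlapped. Its coefficient of variation was 1.97% with the high label and 9.73% with the low label, and the fitted log2 fold change was 0.02 ± 0.16 (± standard error). The sign turned with the GC offset (-0.03), with that offset and the block (-0.02) and without labelled low replicate 2 (-0.02).

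Ptpra and Ptpre are close relatives with short extracellular parts, and Ptpra encodes an activator of Src in fibroblasts. Ptpra, on chromosome 2 from 130450278 to 130556124, stood at 160, 163 and 159 CPM in the high-labelled libraries and at 124, 135 and 105 CPM in the low-labelled ones. All libraries labelled high lay above all labelled low, as also held for 10.5% of all tested genes. The fitted log2 fold change was 0.41 ± 0.17 (± standard error), and it was 0.32 to 0.66 over the alternatives, never called. The within-batch log2 ratios were 0.37, 0.28 and 0.60. Ptpre, on chromosome 7 from 135537481 to 135686293, stood at 83.4, 74.5 and 77.4 CPM with the high label and at 75.4, 65.5 and 85.7 CPM with the low label. The groups overlapped, the log2 fold change was 0.06 ± 0.17, and it was -0.003 without labelled low replicate 2. An antisense gene, 5830432E09Rik, covers 209 bases of Ptpre exons and had 220 to 325 reads in the 5 libraries other than labelled low replicate 3, so a small part of either gene's reads may be the other's. The antisense gene over 327 bases of Ptpra, 4930473A02Rik, had 3 reads in all.

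Ptpro, on chromosome 6 from 137252319 to 137463233, encodes a phosphatase with a single catalytic domain known from kidney podocytes, with a shorter form in myeloid and B cells. It stood at 78.7, 87.3 and 86.3 CPM in the high-labelled libraries and at 69.7, 80.7 and 49.3 CPM in the low-labelled ones. The top library labelled low lay above the lowest labelled high, so the groups overlapped. The fitted log2 fold change was 0.33 ± 0.21 (± standard error). It was 0.16 ± 0.14 without labelled low replicate 3 and 0.14 without batch 3, and the highest over the alternatives was 0.54. Dividing by total counts alone moved the median of all genes up by 0.27 on the log2 scale. Relative to that median, Ptprc stood at 0.11, Ptpra at 0.40 and Ptpro at 0.29 in that setting.

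**Figure D4:**
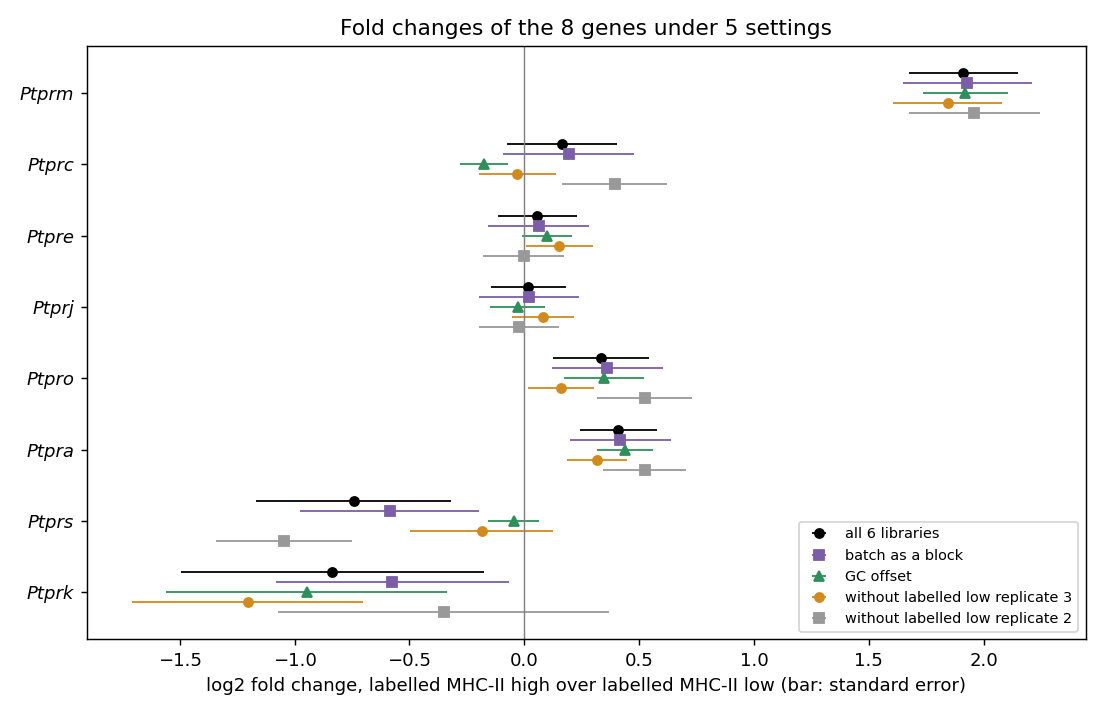
Log2 fold change of each member, labelled MHC-II high over labelled MHC-II low, with its standard error, under 5 settings. Ptprm lies between 1.84 and 1.96 in all 5, while Ptprc changes sign and Ptprs moves close to 0 with the GC offset and without labelled low replicate 3.

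The members did not move together. The median log2 fold change over the 8 was 0.11, beside -0.02 over all tested genes, with 6 values above 0 and 2 below. Of the 8, Ptprm and Ptpra had libraries that did not overlap between labels, both higher with the high label, beside 10.5% of all tested genes wholly higher and 9.48% wholly lower. No count of these is read as a result, since the members were chosen with the comparison in view.

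Partner genes were taken from 5 lists drawn up with earlier results of these data known, so their counts are a description of the fit and no independent support. Of 63 tested genes 2 were called by edgeR, both lower in the high-labelled libraries, which is 3.17% beside 0.354% of all tested genes called lower. Unadjusted p values by edgeR were under 0.05 for 13 of them, 12 lower and 1 higher. Of all tested genes 12.1% had such a p, 7.99% lower and 4.06% higher. DESeq2 called 6, beside 2.81% of all genes, and limma-voom called 1, beside 0.368%.

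Among 11 adhesion partners of the Ptprm and Ptprk class, 1 was called and the median log2 fold change was 0.08. Cdh1, which encodes E-cadherin, fell to 9.68, 9.53 and 11.7 CPM in the high-labelled libraries, against 34.2, 30.1 and 37.5 CPM in the low-labelled ones. The groups did not overlap, and the log2 fold change was -1.71 ± 0.20 (± standard error, adjusted p 0.0180 by edgeR). Its adjusted p was 0.119, 0.158 and 0.0714 without labelled high replicates 1, 2 and 3, 0.125 without labelled low replicate 1, 0.0521 without batch 3 and 0.172 with total counts. Ctnna1, alpha-catenin, stood at 157 ± 9.7 CPM with the high label and 133 ± 4.3 CPM with the low label (SD, n = 3 each, adjusted p 0.501 by edgeR). Jup, plakoglobin, stood at 4.00 ± 2.1 CPM with the high label and 12.7 ± 8.9 CPM with the low label (log2 fold change -1.64, adjusted p 0.378 by edgeR). Jup was at -1.03 without labelled low replicate 3, and its adjusted p by edgeR was 0.0478 with the GC offset and the block and 0.0301 without labelled low replicate 2. Egfr, a growth factor receptor and Ptprk substrate in human cells, stood at 12.4 ± 6.3 CPM with the high label and 17.0 ± 10.0 CPM with the low label (adjusted p 0.642 by edgeR). Cdh1 is also 1 of 6 epithelial markers, which summed to 14.8 to 21.7 CPM with the high label and 41.0 to 42.6 CPM with the low label. The gap between these sums came from Cdh1, which alone held 9.53 to 11.7 CPM and 30.1 to 37.5 CPM of them. Of these, 3 were tested, and Cdh1 was the 1 called by edgeR, DESeq2 and limma-voom. Cldn4 had 0 reads everywhere, Epcam had 0 with the high label and 4 reads in 1 library labelled low, and Krt18 stood at 5.68 ± 3.6 CPM with the high label and 5.48 ± 2.4 CPM with the low label.

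**Figure D5:**
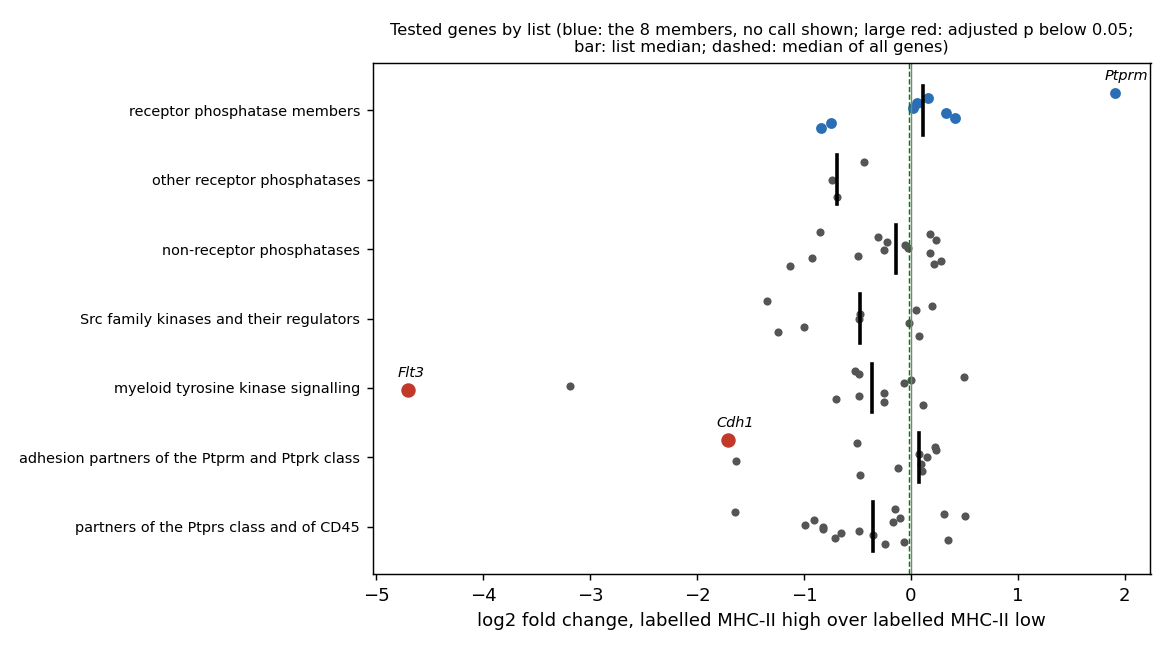
Log2 fold changes, labelled MHC-II high over labelled MHC-II low, of the tested genes in each list, 1 point per gene, with the median of the list as a black bar and the median of all tested genes as a dashed line. Calls are not drawn for the 8 members, and Flt3 and Cdh1 are the 2 called genes of the other lists, both below 0.

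Of 9 tested Src family kinases and regulators, the main known targets of CD45 and CD148, 0 were called by edgeR or limma-voom, and 3 had an unadjusted p under 0.05. DESeq2 called 1, Src. The median log2 fold change was -0.48, and -0.20 with the GC offset. Src stood at 15.4 ± 4.5 CPM in the high-labelled libraries and 39.4 ± 22.7 CPM in the low-labelled ones (SD, n = 3 each), with a log2 fold change of -1.34 ± 0.41 (adjusted p 0.281 by edgeR). Csk, the kinase that adds the inhibitory phosphate that CD45 removes, stood at 33.1 ± 11.3 CPM with the high label and 66.8 ± 45.0 CPM with the low label (adjusted p 0.434 by edgeR). Matk, a kinase related to Csk, stood at 14.3 ± 3.9 CPM with the high label and 34.2 ± 21.5 CPM with the low label (adjusted p 0.384). Fgr, a myeloid Src family kinase, stood at 230 ± 12.5 CPM with the high label and 322 ± 74.7 CPM with the low label (adjusted p 0.408). All 4 were highest in labelled low replicate 3, as in Csk at 116 CPM there, against 57.2 and 27.4 CPM in labelled low replicates 1 and 2. Without that library the log2 fold change was -0.79 for Src, -0.36 for Csk (-1.003 with it) and -0.68 for Matk (-1.24 with it).

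Of 14 tested non-receptor phosphatases, relatives of the class, 0 were called by edgeR, DESeq2 or limma-voom, and 2 had an unadjusted p under 0.05. Ptpn1, which encodes PTP1B, stood at 77.7 ± 4.1 CPM in the high-labelled libraries and 140 ± 51 CPM in the low-labelled ones (adjusted p 0.292 by edgeR). Ptpn18 stood at 20.6 ± 1.9 CPM with the high label and 39.5 ± 19.9 CPM with the low label, and Ptpn23 at 15.0 ± 4.8 CPM with the high label and 33.6 ± 29.9 CPM with the low label (adjusted p 0.382 and 0.451). Their log2 fold changes were -0.92 and -1.13, and -0.48 and -0.15 without labelled low replicate 3. Ptpn14, which binds the YAP coactivator, stood at 3.68 ± 1.1 CPM with the high label and 5.16 ± 0.43 CPM with the low label (adjusted p 0.482). The median of the list was -0.14.

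Of 12 tested genes of myeloid tyrosine kinase signalling, edgeR called 1, Flt3, which was lower, with 3 at an unadjusted p under 0.05. DESeq2 called 2, Flt3 and Kit, and limma-voom 0. Flt3, a receptor of dendritic cell precursors, had 0.0557, 0.223 and 0.0715 CPM in the high-labelled libraries, from only 1, 5 and 2 reads. In the low-labelled ones it had 3.04, 5.03 and 1.07 CPM, from 57, 123 and 6 reads. The groups did not overlap (adjusted p 0.0396 by edgeR). It was not called without labelled high replicate 1, 2 or 3, without labelled low replicate 1 or without batch 3 (adjusted p 0.0733 to 0.216), nor by limma-voom (0.0650). Flt3 is also 1 of the dendritic cell markers above. Kit, the stem cell factor receptor, stood at 0.254 ± 0.16 CPM with the high label and 2.26 ± 0.63 CPM with the low label (adjusted p 0.0791 by edgeR, 7.3e-05 by DESeq2 and 0.0221 with the GC offset). Btk, a kinase, stood at 73.0 ± 10.6 CPM with the high label and 51.5 ± 10.96 CPM with the low label (adjusted p 0.412), and Plcg2, a phospholipase, at 66.4 ± 10.0 CPM with the high label and 108 ± 46 CPM with the low label (adjusted p 0.420). Plcg2 had a log2 fold change of -0.70, and -0.36 without labelled low replicate 3. The median of the list was -0.37.

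Of 17 tested partners of the Ptprs class and of CD45, 0 were called by edgeR or limma-voom, 3 had an unadjusted p under 0.05 and DESeq2 called 2. Both of these, Ppfia4 and Sdc4, were also called with the GC offset, in a fit that called 2.55% of all genes. Ppfia4, a liprin of the family that binds the cytoplasmic part of the Ptprs class, stood at 6.90, 4.90 and 7.08 CPM in the high-labelled libraries and 20.5, 12.6 and 26.8 CPM in the low-labelled ones, a gap shown by 9.48% of all tested genes (adjusted p 0.0931 by edgeR and 0.0302 with the GC offset). Sdc4, a cell surface heparan sulphate proteoglycan, stood at 150 ± 11.3 CPM with the high label and 267 ± 36.0 CPM with the low label (adjusted p 0.132 by edgeR and 0.0144 with the GC offset). Sdc1, a related proteoglycan, stood at 54.7 ± 7.9 CPM with the high label and 103 ± 41 CPM with the low label, and Sdc3 at 321 ± 75 CPM with the high label and 639 ± 446 CPM with the low label (adjusted p 0.313 and 0.429). Sdc3 was at 1134 CPM in labelled low replicate 3, and its log2 fold change of -0.99 was -0.29 without that library and -0.30 with the GC offset. That of Sdc1 was -0.91, and -0.56 without that library. The median of the list was -0.35, and -0.07 with the GC offset.

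The remaining marker lists bear on Ptprc, which all leukocytes express. Of the 8 T and NK cell markers 3 had 0 reads in every library, and the list summed to 0.612 to 1.29 CPM in the high-labelled libraries and 2.32 to 2.66 CPM in the low-labelled ones. The 6 B cell markers summed to 2.23 to 2.90 CPM with the high label and 6.54 to 13.03 CPM with the low label, led by Ighm, and of the 2 tested 0 were called by edgeR, 2 had an unadjusted p under 0.05, DESeq2 called 1 and limma-voom 0. Ighm stood at 1.43 ± 0.23 CPM with the high label and 6.87 ± 3.3 CPM with the low label, and Cd79b at 0.822 ± 0.094 CPM with the high label and 1.58 ± 0.15 CPM with the low label. Cd3e, a defining T cell gene, had 0 reads in every library, while Trac, another, had 0, 0 and 0 reads with the high label and 5, 14 and 1 with the low label. The 1 T and NK cell marker tested, Cd4, stood at 0.856 ± 0.37 CPM with the high label and 1.75 ± 0.38 CPM with the low label (adjusted p 0.420 by edgeR). Klrb1c stood at 0.159 ± 0.057 CPM with the high label and 0.354 ± 0.35 CPM with the low label. The 6 neutrophil markers summed to 17.3 to 28.2 CPM with the high label and 17.0 to 34.98 CPM with the low label, with 0 of 4 tested called by edgeR, DESeq2 or limma-voom and 2 at an unadjusted p under 0.05. Csf3r stood at 8.19 ± 1.2 CPM with the high label and 16.4 ± 7.8 CPM with the low label, and Mmp8 at 6.83 ± 4.0 CPM with the high label and 4.75 ± 1.7 CPM with the low label. The 10 macrophage markers summed to 4097 to 5421 CPM with the high label and 3727 to 9405 CPM with the low label. Of the 10, edgeR and limma-voom called 0 and DESeq2 called 1. By edgeR 1 had an unadjusted p under 0.05 and was higher with the high label. Log2 fold changes were above 0 for 3 and below 0 for 7. The 2 most abundant were C1qa and C1qb (adjusted p 0.454 and 0.447 by edgeR). C1qa stood at 1046 ± 196 CPM with the high label and 1743 ± 970 CPM with the low label. C1qb stood at 1072 ± 206 CPM with the high label and 1718 ± 793 CPM with the low label. Both were highest in labelled low replicate 3, at 2755 and 2522 CPM. In batch 2 both were higher with the high label, with log2 ratios of 0.21 and 0.13. The median log2 fold change of the macrophage list was -0.48, and -0.06 with the GC offset. The part of B, T and NK cells in the level of Ptprc was not tested.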

How the data were processed

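The authors deposited unnormalized counts of reads, a table for each library, over 55487 Ensembl genes. Another 5 summary lines stayed out of library sizes and tests (35.2% to 49.4% of listed reads had no feature, 0.324% to 0.864% were ambiguous and 7.60% to 17.4% aligned to several places). STAR and HTSeq, with GRCm38, are among the names in the submitters' processing notes. Which annotation release was counted, and with which strand option, is not given in the sources used here, so reads of overlapping and antisense genes cannot be told apart. Symbols, coordinates and lengths came from GENCODE M21 (GRCm38), which matched 55227 genes, and promoter windows from RefSeq, which matched all 8 members.

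The main test was edgeR's quasi-likelihood test (edgeR 4.0.16, R 4.3.3) of labelled high against labelled low after TMM scaling and its default filter on low counts, with genes called below a Benjamini-Hochberg adjusted p of 0.05 over 14140 genes. The fit was checked on simulated data. CPM uses TMM-scaled library sizes. Fold changes are log2, labelled high over labelled low, with standard errors equal to the fold change over the root of the F statistic. Alternatives used DESeq2 1.42.0, limma-voom (limma 3.58.1), other scalings and filters, the batch as a block, a GC offset (local regression, span 0.4) and leaving out libraries. The labels give each number as a shared batch, which pairs the libraries. Deviations from the label means correlated over genes at 0.153, 0.325 and -0.0908 in batches 1, 2 and 3, and pairs of different batches at -0.461 to 0.32, so the pairing rests on the labels and not on these values.

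The members and lists were chosen with earlier results of these data known. Named were all 21 receptor phosphatases, called genes and up to 4 of the smallest p at 1 CPM or more per list, from each marker list the called genes and the 2 most abundant, and the 5 genes nearest to Ptprm and to Ptprc (with 0.1 CPM added before the log). Siglech, Klk1, Cldn4, Epcam, Cd3e and Trac were named after their counts were seen, and H2-Aa, H2-Ab1 and Cd74 check the labels. Marker lists were for macrophages, dendritic, plasmacytoid dendritic, B, T and NK cells, neutrophils, endothelium, fibroblasts and epithelium.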

Additional observations from a re-analysis of the deposited data

How the results depend on the processing

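Each of the 8 members kept a value under all 17 alternatives, and Ptprm, Ptpro and Ptpra stayed above 0 and Ptprs and Ptprk below 0 in each, while Ptprc, Ptpre and Ptprj did not keep their sign. With the replicate block 0 members were called and 1 gene in all was higher, and without single libraries or batch 3 the members called numbered 0 to 1. Cdh1 and Flt3 stayed called with the block. Genes called higher and lower numbered 121 and 277 by DESeq2, 119 and 241 with the GC offset, 160 and 371 when the offset and the block were combined, and 113 and 436 without a filter, beside 13 and 50 in the edgeR test, and 8 were higher with total counts. Leaving out libraries gave 0 to 246 higher and 8 to 784 lower, with both top values reached without labelled low replicate 2. In the partner lists the 2 lower genes became 6 by DESeq2 and with offset and block combined, 5 with the offset alone, 10 without a filter, 1 by limma-voom and at 1 CPM in 3 libraries, where Flt3 was too low to test, and 0 to 14 without single libraries. The order of levels per length had 2 members at another place with the longest transcript, and 0 to 2 without single libraries. Outside the members, 3 uncalled genes changed sign, Ptpn23 at 0.015 without batch 3 and Egfr at 0.010 and Ptprg at 0.14 without labelled low replicate 2, and without single libraries or batch 3 their lowest values were -1.52, -0.88 and -0.66. The causes were not tested. Depth limits Ptprk, with 1 to 53 reads per library, Flt3, with 1 to 123, and Ptprm in labelled low replicate 3, with 14.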
